A study of Homo sapiens with 45 samples.

Results

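Human cells were compared after 2 days and after 1 day of differentiation towards motor neurons, across all genes of the deposited table. The comparison takes 6 of the 45 human libraries, 3 from day 2 and 3 from day 1, and 19436 of the 58233 genes listed had enough counts to be tested. The cells came from the established human embryonic stem cell line H9, so all libraries share 1 genetic background. They had first been held for 3 days in CHIR99021 (3 µM, an inhibitor of the kinase GSK3 that activates Wnt signalling), bFGF (5 ng/ml), SB431542 (10 µM) and DMH1 (2 µM), which block the TGF-beta and BMP receptors, and are labelled as starting from neuromesodermal progenitors. On day 0 they were dissociated and replated on fibronectin in retinoic acid (RA, 100 nM) and SAG (500 nM), which switches on Hedgehog signalling by binding Smoothened. Both groups carry the same label of treatment, so the comparison is one of time: day 2 cells had been in RA and SAG for 2 days and day 1 cells for 1 day. A ROCK inhibitor (Y-27632, 10 µM) was present from plating and was withdrawn at 48 h, and whether the day 2 cells were collected before or after that change is not given in the labels. Time in culture, cell density and these changes of medium cannot be told apart. Replicates are called bioreps, with no more said of them, so the spread between them may be technical. The p-values and SEs rest on that spread as estimated over all 45 libraries of the 15 days. They are not a measure of the spread within the 6 libraries alone.

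In the embryo, RA and Hedgehog signals act together on the neural tube. RA gives hindbrain and spinal cord identity and helps progenitors to leave the tail bud state, and Hedgehog signalling, through the GLI factors, induces the ventral transcription factors NKX6-1 and OLIG2 that lead to motor neurons. Progenitors leave the cell cycle when proneural bHLH factors win over Notch signalling. Cells with high proneural activity make Delta ligands, and their neighbours answer through Notch with HES repressors that hold back neuron formation.

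The 3 day 2 libraries held 31594840, 29151089 and 27413941 counts, and the 3 day 1 libraries 32142057, 32589305 and 24735138. In the 6 libraries alone, the days were separated on the first principal component, with 56.5% of the variance. Day 1 replicate 3, the shallowest library, stood apart on the second component (13.2% of the variance) at -26.5, against 13.4 and 14.7 for the other day 1 libraries. On the first component of the whole time course, with day 0 at 0% and day 15 at 100%, day 2 lay at 13.6% ± 0.54, against 6.41% ± 0.42 for day 1 (1000 most variable genes, mean ± SD, n = 3). Counts from mitochondrial genes made up 3.148% to 3.553% on day 2, against 3.653% to 5.287% on day 1. That difference of -1.05 percentage points had p = 0.1 in a two-sided exact permutation test, the smallest that 3 against 3 libraries allow, and its part in the results was not tested. Levels below are CPM, read counts scaled to the effective library size, as mean ± SD with n = 3 where an SD is given. In bulk RNA, fewer cells of a type and less RNA per cell cannot be told apart.

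The labelled cell type, neural progenitors, was checked against marker genes. The summed level of 7 neural progenitor markers (SOX1, SOX2, SOX3, SOX21, PAX6, HES5 and NES) was 4116 to 4233 CPM on day 2, against 4183 to 4504 CPM on day 1, all well above the 739 to 894 CPM of day 0. The 5 neuron markers summed to 616 to 624 CPM on day 2, against 360.2 to 375 CPM on day 1. On day 0 they had summed to 488 to 512 CPM, so they were lower on day 1 than before or after. Those of motor neurons (MNX1, ISL1, LHX3 and CHAT) summed to 0.379 to 0.663 CPM on day 2, against 0.26 to 0.764 CPM on day 1, so these were near 0 on both days. The 5 markers of neuromesodermal progenitors (TBXT, NKX1-2, CDX1, CDX2 and WNT8A) summed to 22.3 to 24.3 CPM on day 2, against 59.3 to 62.0 CPM on day 1. On day 0 they had summed to 1536.1 to 1655.5 CPM. The marker sets of other cells summed to less than the neuromesodermal set on both days. The 3 pluripotency markers summed to 1.67 to 1.72 CPM on day 2, against 9.73 to 11.1 CPM on day 1, with NANOG at 0 on both days. The 4 neural crest markers summed to 2.35 to 2.43 CPM on day 2, against 1.82 to 2.22 CPM on day 1, and SOX10 was at 0 on day 2 and FOXD3 at 0 on day 1. The 4 paraxial mesoderm markers summed to 3.11 to 3.21 CPM on day 2, against 2.95 to 3.05 CPM on day 1, with MSGN1 at 0 on day 2. The 3 endoderm, 2 endothelium and 4 non-neural ectoderm markers summed to at most 1.2 CPM for any of these sets in any library of both days. Longer lists for these cells, described below, were not that low. Endoderm and endothelium genes summed to 30.85 to 32.84 CPM on day 2, against 64.39 to 66.06 CPM on day 1. Non-neural ectoderm genes summed to 111.8 to 119.7 CPM on day 2, against 196.8 to 200 CPM on day 1.

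Between day 2 and day 1, 4530 genes (23.3% of those tested) differed at an adjusted p under 0.05 (edgeR quasi-likelihood F test, Benjamini-Hochberg adjustment). Of these, 2215 (11.4%) were higher and 2315 (11.9%) lower on day 2. A change of at least 2-fold was reached by 422 (2.17%) of those that rose and 667 (3.43%) of those that fell. A 4-fold change was reached by 131 that rose and 224 that fell, so among large changes the falls were more numerous. The median change over all genes tested was -0.01 on the log2 scale. For 8496 genes (43.7%) the libraries of the days did not overlap, so non-overlap alone says little about a gene. With limma on log2(TPM + 1), 2598 genes were higher and 1267 lower, or 67.2% of the calls higher against 48.9% above, so the balance of rises and falls depends on the scale. By the same test, 5845 genes were higher and 6152 lower on day 1 against day 0, and 3794 higher and 3098 lower on day 4 against day 2. Those neighbouring comparisons share the day 1 or the day 2 libraries. No samples of day 3 were analysed here.

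**Figure D1:**
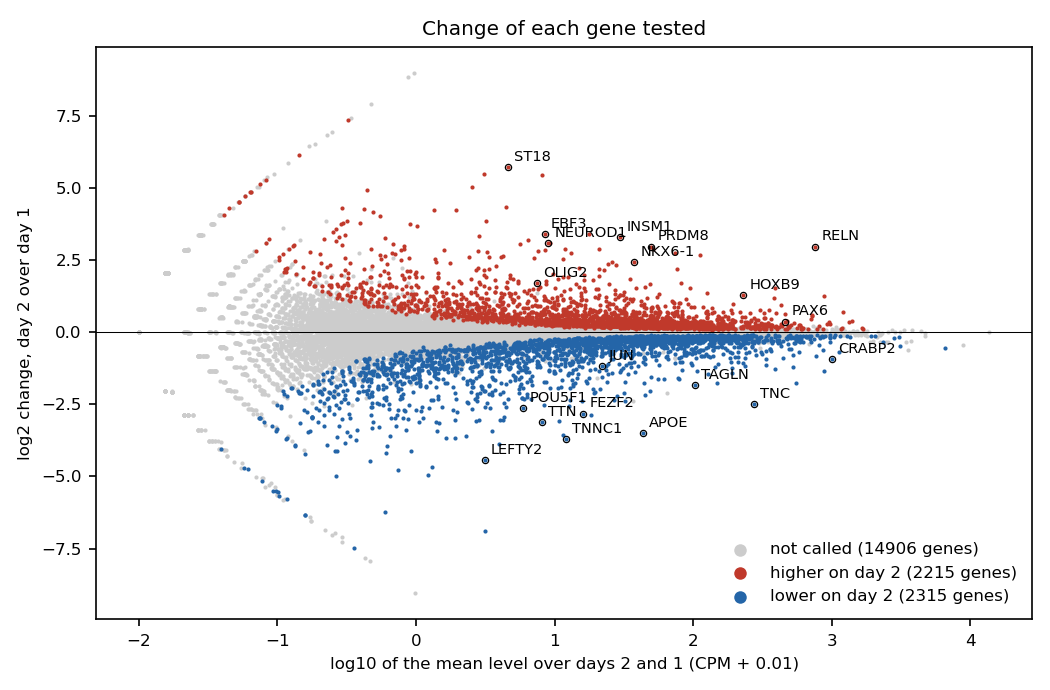
Each point is 1 of the 19436 genes tested, with its log2 change (day 2 over day 1) against log10 of its mean level over both days (CPM + 0.01); colours mark the 2215 genes called higher and the 2315 called lower, and grey the rest. Among the labelled genes, RELN, INSM1 and NKX6-1 lie far above 0 and TNC, APOE and TAGLN far below it, and diagonal streaks at the left edge are genes with a few counts on 1 day only.

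Gene lists of pathways and cell types are described below by how many of their members passed the test across all genes. The share of all genes that rose (11.4%) or fell (11.9%) is the background to read them against.

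**Figure D2:**
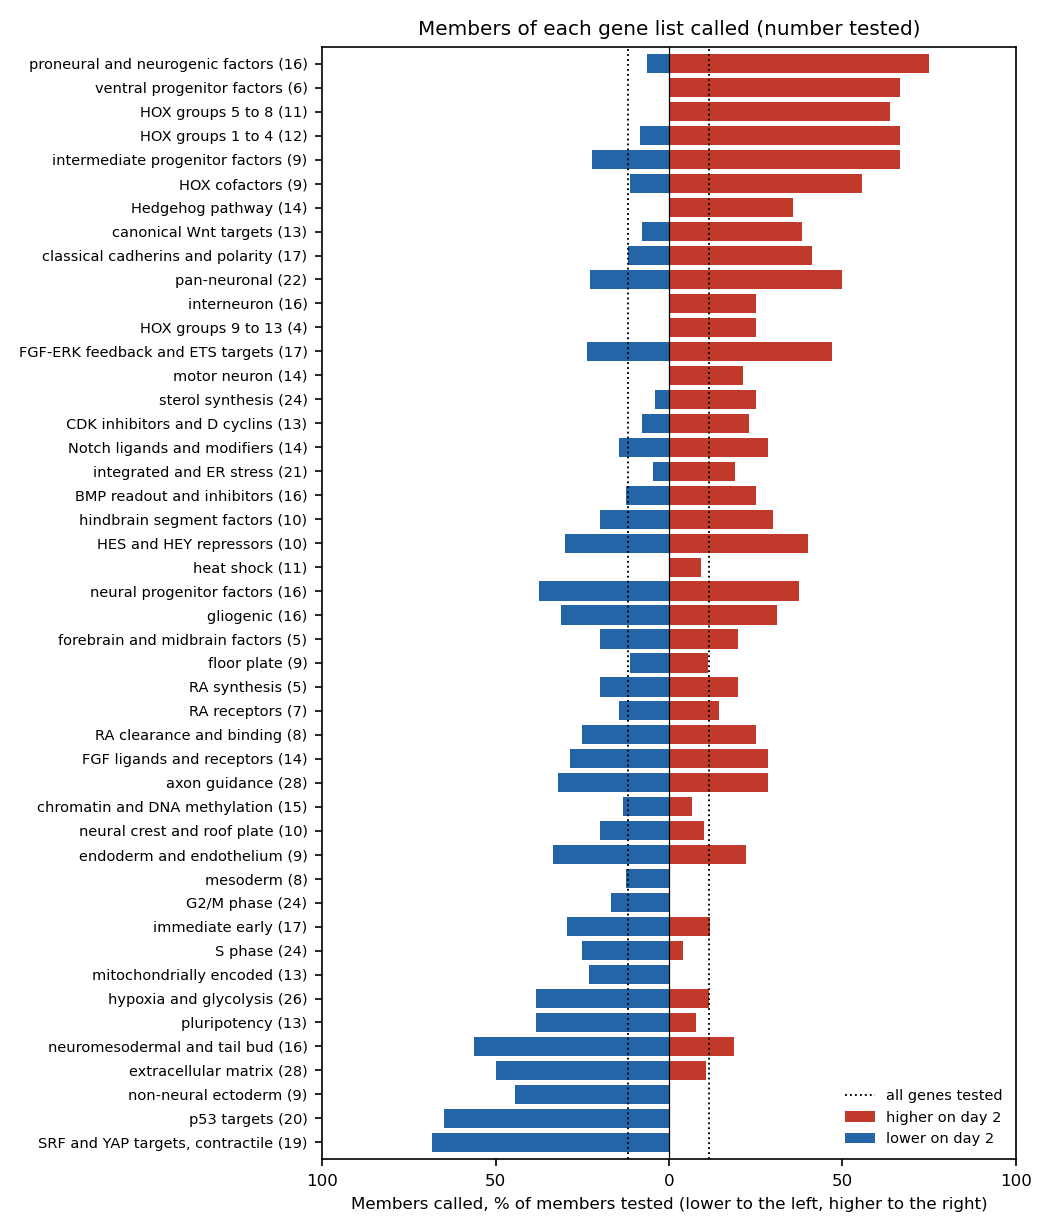
For each gene list (number of members tested in brackets), bars give the percentage of tested members called higher on day 2 (right) and lower (left), and dotted lines mark the 11.4% and 11.9% of all genes tested. Proneural, ventral and intermediate progenitor factors and HOX groups 1 to 8 extend furthest right, and contractile, p53 target, extracellular matrix and tail bud genes furthest left.

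Genes of newly forming neurons were among those with large rises. INSM1, a zinc finger factor that drives progenitors out of division (ENSG00000173404, chromosome 20, 20368121 to 20370949 in GRCh38), had 56.7, 51.2 and 54.8 CPM in the day 2 libraries, against 5.67, 6.11 and 4.59 CPM in the day 1 libraries. The lowest day 2 library was far above the highest day 1 library, and the log2 change was 3.30 ± 0.15 (SE), adjusted p = 4.6e-19. NEUROD1, a bHLH factor that acts after the neurogenins (it overlaps CERKL), had 16.9, 15.6 and 15.7 CPM in the day 2 libraries, against 2.16, 2.06 and 1.34 CPM in the day 1 libraries, a change of 3.09 ± 0.17 (SE), adjusted p = 3.5e-17. Its relative NEUROD4 had 35.8, 38.1 and 36.7 CPM in the day 2 libraries, against 8.69, 7.8 and 8.61 CPM in the day 1 libraries (2.14 ± 0.19). NHLH1, a bHLH factor of young neurons, averaged 10.1 ± 0.84 CPM on day 2, against 1.22 ± 0.11 CPM on day 1 (3.05 ± 0.28). For each of these genes the libraries of the days did not overlap. That was a condition for naming the largest rises, so it adds no support for them.

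The EBF family, which promotes neuronal maturation and migration, rose with them. EBF3 averaged 15.5 ± 0.76 CPM on day 2, against 1.45 ± 0.31 CPM on day 1 (3.39 ± 0.28 (SE), adjusted p = 2.2e-11), EBF1 7.78 CPM on day 2, against 2.17 CPM on day 1 and EBF2 18.9 CPM on day 2, against 9.49 CPM on day 1. The zinc finger factor ST18 averaged 9.08 ± 0.82 CPM on day 2, against 0.165 ± 0.088 CPM on day 1, a log2 change of 5.72 ± 0.43. In contrast, NEUROG2 and NEUROG1, which stand at the head of the cascade, rose by less, and NEUROG2 was already abundant on day 1. NEUROG2 had 148, 146 and 150.1 CPM in the day 2 libraries, against 102, 104 and 103 CPM in the day 1 libraries, a change of 0.53 ± 0.11 (SE), adjusted p = 0.00032. NEUROG1 averaged 18.3 ± 1.7 CPM on day 2, against 11.0 ± 0.49 CPM on day 1 (0.73 ± 0.14). Per transcript length, NEUROG2 was the higher of the pair on both days, at 108 TPM on day 2, against 71.8 TPM on day 1, and NEUROG1 was at 18.6 TPM on day 2, against 10.7 TPM on day 1. Of 16 proneural and neurogenic factors tested (18 listed), 12 rose, and BTG2, an antiproliferative gene that is also a p53 target, fell. Their median log2 change was 1.83, against -0.01 for all genes tested. NHLH2 and GADD45G were among those that did not pass, and ATOH1 and NEUROD2 had too few counts to be tested. The rise of NEUROG3 lost its call in 4 of the 6 fits without 1 library and with DESeq2 (adjusted p = 0.078).

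Genes of the neuronal cytoskeleton and RNA-binding proteins were less uniform. DCX, a microtubule protein of migrating neurons, had 144, 142 and 136 CPM in the day 2 libraries, against 48.7, 48.4 and 49.0 CPM in the day 1 libraries (1.53 ± 0.18). The neuronal RNA-binding protein genes ELAVL4 and ELAVL3 rose by 2.84 ± 0.27 and 2.21 ± 0.19, with ELAVL4 at 15.1 ± 1 CPM on day 2, against 2.09 ± 0.21 CPM on day 1. SYT4, a synaptotagmin, averaged 1.68 ± 0.32 CPM on day 2, against 0.124 ± 0.054 CPM on day 1 and rose by 3.75 ± 0.72. TUBB3, the neuronal beta-tubulin, was already abundant on day 1 and rose by 0.47 ± 0.09 (422 ± 2.9 CPM on day 2, against 306 ± 7.7 CPM on day 1). Of 22 pan-neuronal genes tested, 11 rose and 5 fell. Those that fell included neurofilament genes: NEFM averaged 8.85 ± 0.38 CPM on day 2, against 44.7 ± 0.4 CPM on day 1 (-2.34 ± 0.23 (SE), adjusted p = 1.6e-09), and NEFL 43.0 CPM on day 2, against 70.5 CPM on day 1 (-0.71 ± 0.12). The growth cone gene GAP43 (-1.19 ± 0.19), MAP2 (-0.52 ± 0.06) and DPYSL3 (-0.35 ± 0.10) also fell. Both directions were therefore present within the list, and all 4 of NEFM, NEFL, GAP43 and STMN2 had been higher on day 0 than on day 1, as STMN2 shows with 249.9, 6.33, 17.1 and 193 CPM on days 0, 1, 2 and 4.

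**Figure D3:**
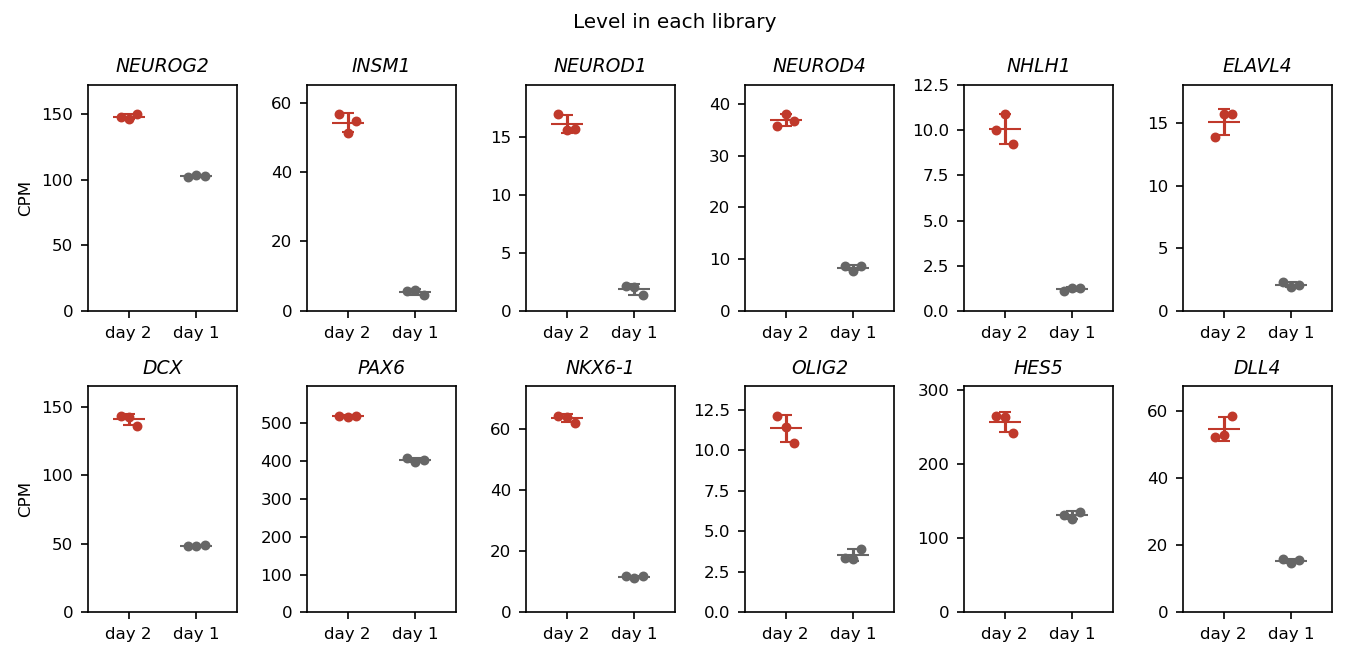
Each panel gives 1 gene's level in CPM in the 3 day 2 libraries (left, red) and the 3 day 1 libraries (right, grey), with the mean and SD as bar and whiskers and an axis that starts at 0. In all 12 panels every day 2 library lies above every day 1 library; the gap is widest in ratio for INSM1, NEUROD1 and NHLH1 and narrowest for PAX6 and NEUROG2.

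Subtype genes of neurons rose in a few cases only. SLC18A3, the vesicular acetylcholine transporter gene that lies within CHAT, averaged 1.73 ± 0.44 CPM on day 2, against 0.474 ± 0.2 CPM on day 1 (1.90 ± 0.37), while CHAT itself was at 0.0121 CPM on day 2 and 0.0332 CPM on day 1. Of 14 motor neuron genes tested, 3 rose and none fell (also by DESeq2 or at an unadjusted p under 0.05, but 2 were lower with limma on log2(TPM + 0.1)), and 1 of the rises, that of TBX3, lost its call without day 2 replicate 2 (adjusted p = 0.11), without day 2 replicate 3 (0.16), without day 1 replicate 1 (0.12) and without day 1 replicate 3 (0.18). The homeodomain factors that define somatic motor neurons, MNX1, ISL1 and LHX3, did not pass and averaged 0.271, 0.0231 and 0.198 CPM on day 2, against 0.47, 0.0221 and 0.0365 CPM on day 1.

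Among 16 interneuron genes tested, 4 rose. FOXN4, which acts in the p2 progenitors that give V2 interneurons, had 34.6, 33.5 and 31.4 CPM in the day 2 libraries, against 7.5, 9.1 and 9.39 CPM in the day 1 libraries (1.94 ± 0.14). VSX1, a homeodomain factor of the same lineage, averaged 16.7 ± 0.31 CPM on day 2, against 4.65 ± 0.32 CPM on day 1 (1.84 ± 0.17), and GATA2, a V2b factor, averaged 3.64 ± 0.5 CPM on day 2, against 0.194 ± 0.085 CPM on day 1 (4.22 ± 0.39). The fourth, POU4F1, was at 0.243 CPM on day 2, against 0.0765 CPM on day 1, and lost its call in 4 of the 6 fits that each left out 1 library (adjusted p = 0.15 without day 2 replicate 2, 0.11 without day 2 replicate 3, 0.15 without day 1 replicate 1 and 0.082 without day 1 replicate 2) and with DESeq2 (0.056). RELN, which encodes the secreted guidance protein reelin, rose too, with 1351, 1383 and 1327 CPM in the day 2 libraries, against 171, 173 and 178 CPM in the day 1 libraries (2.96 ± 0.12 (SE), adjusted p = 8.6e-20). It was at 0.45, 174, 1354 and 1839 CPM on days 0, 1, 2 and 4.

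Genes of Notch signalling changed by gene rather than as a group. Of the ligands, DLL4 had 52.4, 52.9 and 58.7 CPM in the day 2 libraries, against 16.0, 14.6 and 15.6 CPM in the day 1 libraries, a rise of 1.83 ± 0.12 (SE), adjusted p = 1.1e-14. JAG1 rose by 0.44 ± 0.05 and averaged 337 ± 9.3 CPM on day 2, against 249 ± 4.2 CPM on day 1. DLL1, the ligand of neurogenic progenitors, averaged 226 ± 0.8 CPM on day 2, against 208 ± 2.6 CPM on day 1 and did not pass (0.12 ± 0.16 (SE), adjusted p = 0.65). DLL3, which acts within the ligand-producing cell, did not pass either, at 81.1 ± 3.8 CPM on day 2, against 64.5 ± 1.1 CPM on day 1. Among receptors NOTCH1 rose (172 ± 7.8 CPM on day 2, against 126 ± 0.15 CPM on day 1) and NOTCH2 fell (282 ± 8.2 CPM on day 2, against 361 ± 11.9 CPM on day 1). The ubiquitin ligase gene MIB1, which activates the ligands, rose by 0.37 ± 0.07, and DNER fell by 1.16 on the log2 scale. Of 14 ligands, receptors and modifiers, 4 rose and 2 fell.

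The HES repressors divided in the same way. HES5, the main Notch effector of spinal cord progenitors, had 265, 263 and 241 CPM in the day 2 libraries, against 132, 126 and 136 CPM in the day 1 libraries (0.97 ± 0.13 (SE), adjusted p = 5.1e-07), so both the ligand DLL4 and this effector were higher on day 2. HES4 averaged 39.7 ± 1.5 CPM on day 2, against 24.6 ± 1 CPM on day 1 (0.69 ± 0.10), and NRARP, a feedback inhibitor of Notch, averaged 48.7 ± 1 CPM on day 2, against 37.0 ± 0.29 CPM on day 1, a call lost in all 6 fits that each left out 1 library (adjusted p between 0.057 and 0.084). HES1 averaged 5.58 ± 0.79 CPM on day 2, against 6.29 ± 0.43 CPM on day 1 and did not pass (-0.17 ± 0.19 (SE), adjusted p = 0.57). HES3, which acts in early neural progenitors, fell to 14.3 ± 1.1 CPM on day 2, against 37.9 ± 1.9 CPM on day 1 (-1.41 ± 0.13 (SE), adjusted p = 1e-10). HEY2 and HES7 fell too, and HES7, the somite clock gene, had 2 counts over the day 2 libraries, giving a ratio of 17.2 for day 1 over day 2 (95% counting interval 4.4 to 147). Of 10 members tested, 4 rose and 3 fell.

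The promoters of HES5 and HES4 are shown because both genes rose and both hold TGGGAA, the core of the site that RBPJ, the DNA-binding partner of Notch, recognises. Each run gives the 250 bases before the transcript start, 5′ to 3′ on the gene's strand, from RefSeq (GRCh38.p14), with every TGGGAA, on either strand, in capitals. That of HES5 is chr1:2530264-2530513, minus strand, and that of HES4 chr1:1000098-1000347, minus strand.
HES5: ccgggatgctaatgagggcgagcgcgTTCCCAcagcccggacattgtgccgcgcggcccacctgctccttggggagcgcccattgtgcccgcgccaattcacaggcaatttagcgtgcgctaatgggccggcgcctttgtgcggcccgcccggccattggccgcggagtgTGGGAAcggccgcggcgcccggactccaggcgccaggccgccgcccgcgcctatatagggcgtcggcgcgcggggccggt
HES4: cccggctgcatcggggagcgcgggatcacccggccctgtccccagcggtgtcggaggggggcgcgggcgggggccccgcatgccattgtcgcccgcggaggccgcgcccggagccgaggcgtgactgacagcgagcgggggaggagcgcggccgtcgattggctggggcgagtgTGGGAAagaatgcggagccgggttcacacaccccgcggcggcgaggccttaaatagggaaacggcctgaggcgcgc
The motif was searched as TGGGAA and, for the other strand, TTCCCA. It is in 20.8% of 35116 promoters of this length. Of 9 HES and HEY genes with a promoter entry, 6 hold it, of which 2 rose, 2 fell and 2 were not called, so its presence did not separate the directions. A match is a description of the letters, not a binding site.

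Most of the ventral progenitor factors, which Hedgehog signalling induces in the embryo, rose. NKX6-1 (ENSG00000163623, chromosome 4, 84491987 to 84498450) had 64.5, 64.1 and 62.1 CPM in the day 2 libraries, against 11.8, 11.4 and 12.0 CPM in the day 1 libraries, a log2 change of 2.44 ± 0.15 (SE), adjusted p = 8.2e-15. OLIG2, which marks motor neuron progenitors (ENSG00000205927, chromosome 21, 33025845 to 33029196), had 12.1, 11.4 and 10.4 CPM in the day 2 libraries, against 3.35, 3.32 and 3.94 CPM in the day 1 libraries (1.69 ± 0.17 (SE), adjusted p = 6.6e-10). Its neighbour OLIG1 averaged 5.79 ± 1 CPM on day 2, against 0.948 ± 0.05 CPM on day 1 (2.61 ± 0.31), and NKX6-2, which overlaps INPP5A, averaged 21.2 ± 0.56 CPM on day 2, against 9.72 ± 1.3 CPM on day 1 (1.12 ± 0.13). These were 4 of 6 ventral factors, with a median of 1.41. With every alternative fit that was run, 4 members of the list were called higher. The other two, NKX2-2 and NKX2-8, which mark the most ventral progenitors, were near 0 at 0.0689 CPM on day 2, against 0.117 CPM on day 1, and 0.0836 CPM on day 2, against 0.157 CPM on day 1, and did not pass. Per transcript length NKX6-1 was at 40.6 TPM on day 2, against 7.29 TPM on day 1, and OLIG2 was at 8.33 TPM on day 2, against 2.53 TPM on day 1, so OLIG2 was still the lower of the pair on day 2. On the following time point both were higher again, with NKX6-1 at 13.8, 11.7, 63.6 and 126 CPM on days 0, 1, 2 and 4 and OLIG2 at 2.47, 3.54, 11.3 and 62.5 CPM on days 0, 1, 2 and 4.

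Factors of intermediate positions rose as well. PAX6, a factor of most neural tube progenitors that overlaps ELP4, had 519.7, 515 and 518 CPM in the day 2 libraries, against 407, 396 and 404 CPM in the day 1 libraries, and rose by 0.36 ± 0.06 (SE), adjusted p = 3e-06. IRX3, which meets OLIG2 at the dorsal edge of the motor neuron domain, averaged 94.7 ± 0.89 CPM on day 2, against 57.5 ± 1.4 CPM on day 1 (0.72 ± 0.09), and IRX5 11.9 ± 0.23 CPM on day 2, against 4.95 ± 0.12 CPM on day 1 (1.26 ± 0.14). DBX2, of the p0 and p1 domains, averaged 5.99 ± 0.48 CPM on day 2, against 0.403 ± 0.049 CPM on day 1 (3.87 ± 0.25). DBX1, of the p0 domain, averaged 0.782 CPM on day 2 and 0.0433 CPM on day 1. The ratio was 21.5 (95% counting interval 7.03 to 107). PRDM12, of p1 progenitors, averaged 0.718 ± 0.23 CPM on day 2, against 0.0476 ± 0.017 CPM on day 1. PRDM13, a dorsal factor, averaged 0.968 CPM on day 2, against 0.3 CPM on day 1, with its call lost without day 2 replicate 3 (adjusted p = 0.071), without day 1 replicate 2 (0.07043) and with DESeq2 (0.06017). Of 9 members tested, 6 rose, and IRX2 (-0.25 ± 0.06) and the dorsal factor PAX7 (0.0826 ± 0.015 CPM on day 2, against 0.857 ± 0.095 CPM on day 1) fell.

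Dorsal and floor plate genes were mixed. Of 10 neural crest and roof plate genes, MSX1, a target of BMP signalling, fell to 7.32 ± 0.91 CPM on day 2, against 21.8 ± 2 CPM on day 1 (-1.58 ± 0.22 (SE), adjusted p = 6.8e-07), and LMX1A, the roof plate factor, averaged 0.655 ± 0.19 CPM on day 2, against 3.24 ± 0.39 CPM on day 1 (-2.30 ± 0.39). NGFR, a neurotrophin receptor gene, was the 1 member that rose (68.8 ± 1.4 CPM on day 2, against 45 ± 1.9 CPM on day 1), and its call was lost without the libraries numbered replicate 1 (adjusted p = 0.057). Of 9 floor plate genes, NTN1, which encodes the guidance cue netrin-1, rose by 1.01 ± 0.15 (45.5 ± 0.63 CPM on day 2, against 22.6 ± 0.64 CPM on day 1). CORIN fell (0.608 CPM on day 2, against 1.45 CPM on day 1), but its call was lost in 5 of the 6 fits without 1 library, at adjusted p between 0.066 and 0.094. SHH averaged 0.758 ± 0.39 CPM on day 2, against 0.165 ± 0.035 CPM on day 1 and did not pass (2.17 ± 1.01 (SE), adjusted p = 0.12), and FOXA2, the master factor of the floor plate, averaged 0.314 ± 0.16 CPM on day 2, against 0.271 ± 0.058 CPM on day 1 (0.21 ± 0.73 (SE), adjusted p = 0.88).

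Genes of the Hedgehog pathway that were called changed by less than the ventral factors that rose. The part of Hedgehog signalling in those rises was not tested. PTCH1, the receptor that Hedgehog signalling itself induces, averaged 545 ± 8.8 CPM on day 2, against 414 ± 13.9 CPM on day 1 (0.40 ± 0.09 (SE), adjusted p = 0.00057). GLI1, the most direct transcriptional readout of the pathway (it overlaps ARHGAP9), averaged 72.7 ± 2.2 CPM on day 2, against 78.0 ± 3.7 CPM on day 1 and did not pass (-0.10 ± 0.10 (SE), adjusted p = 0.51). HHIP, a feedback inhibitor that binds the ligand, averaged 40.3 ± 0.87 CPM on day 2, against 43.1 ± 1.1 CPM on day 1 and did not pass (-0.10 ± 0.09 (SE), adjusted p = 0.48). Smoothened itself, SMO, was at 205 ± 5.4 CPM on day 2, against 206 ± 1.7 CPM on day 1. The co-receptor gene BOC, which overlaps CFAP44, rose by 0.53 ± 0.11 and the inhibitor SUFU by 0.26 ± 0.06. GPR161 rose by 0.20 ± 0.04, and GLI2 by 0.21 ± 0.07, a call that was lost without day 2 replicate 1 (adjusted p = 0.094), without day 1 replicate 1 (0.066) and without day 1 replicate 2 (0.054). In all, 5 of 14 members rose and none fell, also by DESeq2 or at an unadjusted p under 0.05, but 1 was lower in the fit of days 1 and 2 only.

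Genes of RA signalling moved in both directions although RA was present on both days. CRABP2, a cellular RA-binding protein, had 678, 714 and 688 CPM in the day 2 libraries, against 1325, 1298 and 1354 CPM in the day 1 libraries (-0.94 ± 0.10 (SE), adjusted p = 4.8e-09). DHRS3, a retinaldehyde reductase that RA induces, fell by 0.75 on the log2 scale (27.9 ± 0.71 CPM on day 2, against 46.9 ± 2.8 CPM on day 1). CYP26A1, the RA-degrading enzyme, averaged 13.2 ± 0.16 CPM on day 2, against 12.0 ± 0.11 CPM on day 1 and did not pass (0.13 ± 0.23 (SE), adjusted p = 0.74), nor did CRABP1 (28.5 ± 0.49 CPM on day 2, against 25.0 ± 1.1 CPM on day 1). Of 8 clearance and binding genes tested, 2 rose and 2 fell, and STRA6, which rose, lost its call in 5 of the 6 fits without 1 library, at adjusted p between 0.066 and 0.097. Of the 7 receptors and their corepressor, RARG fell to 10.3 ± 1 CPM on day 2, against 17.5 ± 1 CPM on day 1. RARB, the receptor gene that RA induces (it overlaps TOP2B), averaged 95.5 ± 1.8 CPM on day 2, against 110.1 ± 2.5 CPM on day 1 and did not pass (-0.21 ± 0.08 (SE), adjusted p = 0.07). RARA rose by 0.18 ± 0.06, a call lost in 5 of the 6 fits without 1 library, at adjusted p between 0.05002 and 0.1421. Of 5 synthesis genes 1 rose and 1 fell. RDH10 averaged 8.6 ± 0.84 CPM on day 2, against 6.56 ± 0.51 CPM on day 1, with its call lost without day 2 replicate 1 (0.12) and without day 1 replicate 3 (0.081). ALDH1A3 averaged 0.161 CPM on day 2, against 0.52 CPM on day 1, with its call lost without day 2 replicates 2 (0.12) or 3 (0.14) and without day 1 replicate 2 (0.12). ALDH1A1 (0.202 CPM on day 2, against 0.0332 CPM on day 1), ALDH1A2 (0.0121 CPM on day 2, against 0.277 CPM on day 1) and RDH11 (64.3 CPM on day 2, against 66.2 CPM on day 1) did not pass.

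HOX genes, which set position along the body axis, rose in paralog groups 2 to 6, 8 and 9. HOXB9 (ENSG00000170689, chromosome 17, 48621159 to 48626356) had 325, 328 and 319 CPM in the day 2 libraries, against 134, 134 and 133 CPM in the day 1 libraries (1.28 ± 0.05 (SE), adjusted p = 2e-20). HOXB8 averaged 122 ± 1.5 CPM on day 2, against 55.1 ± 1.2 CPM on day 1 (1.14 ± 0.05), HOXB4 80.4 ± 2.9 CPM on day 2, against 32.4 ± 0.27 CPM on day 1 (1.31 ± 0.06), and HOXC4 29.3 ± 1.5 CPM on day 2, against 10.3 ± 0.94 CPM on day 1 (1.51 ± 0.11). HOXD3 and HOXD4 averaged 30.2 ± 1.2 and 97.0 ± 5.2 CPM on day 2, against 10.8 ± 1.8 and 46.6 ± 1.4 CPM on day 1. HOXC5 averaged 7.62 ± 0.8 CPM on day 2, against 1.93 ± 0.2 CPM on day 1, with the largest log2 change of the family among genes called (1.97 ± 0.23). Of 12 genes of groups 1 to 4, 8 rose and 1 fell, and 0 or 1 fell when 1 library was left out. Of 11 genes of groups 5 to 8, 7 rose and no member fell, in any alternative fit or at an unadjusted p under 0.05. In groups 9 to 13, 4 of 16 could be tested and HOXB9 alone was called.

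Levels on the neighbouring days put these rises in order. HOXB9 was at 846, 134, 324 and 503 CPM on days 0, 1, 2 and 4, and HOXC4 at 65.0, 10.3, 29.3 and 51.7 CPM on days 0, 1, 2 and 4, so both were lower on day 2 than on day 0. HOXD4, at 7.44, 46.6, 97.0 and 108 CPM on days 0, 1, 2 and 4, was not. HOXC8, at 20.3, 0.406, 0.257 and 0.719 CPM on days 0, 1, 2 and 4, was low on both day 1 and day 2 and did not pass between them. HOX genes of a cluster overlap one another in the annotation (HOXB9 with HOXB7, HOXB4 with HOXB3, HOXC4 and HOXC5 with each other, HOXD3 with HOXD4), so reads may be shared between neighbours. Among the cofactors, MEIS1 averaged 63.8 ± 0.71 CPM on day 2, against 35.8 ± 1.2 CPM on day 1 (0.83 ± 0.07) and PBX3 15.8 ± 0.53 CPM on day 2, against 7.24 ± 0.7 CPM on day 1 (1.12 ± 0.17). Of 9 cofactors 5 rose and 1 fell, and no cofactor was called lower in any fit that left out 1 library.

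Region markers of the hindbrain changed in both directions. EPHA4, an ephrin receptor of alternating hindbrain segments, averaged 77.0 ± 0.23 CPM on day 2, against 33.5 ± 1.4 CPM on day 1 (1.20 ± 0.10), and EPHA2 fell (77.2 ± 2.4 CPM on day 2, against 129 ± 0.98 CPM on day 1). Of 10 tested, 3 rose and 2 fell. FEZF2, a forebrain transcription factor, had 3.98, 4.24 and 3.72 CPM in the day 2 libraries, against 29.3, 26.3 and 29.1 CPM in the day 1 libraries (-2.83 ± 0.24 (SE), adjusted p = 5.2e-10). It was at 0, 28.2, 3.98 and 0.0452 CPM on days 0, 1, 2 and 4, so it was counted on day 1 and day 2 and hardly before or after. PAX5, a factor of the mid-hindbrain boundary and hindbrain, averaged 0.995 ± 0.094 CPM on day 2, against 0.171 ± 0.16 CPM on day 1 (2.63 ± 0.36), and of the 17 forebrain and midbrain factors listed only 5 had enough counts to be tested.

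**Figure D4:**
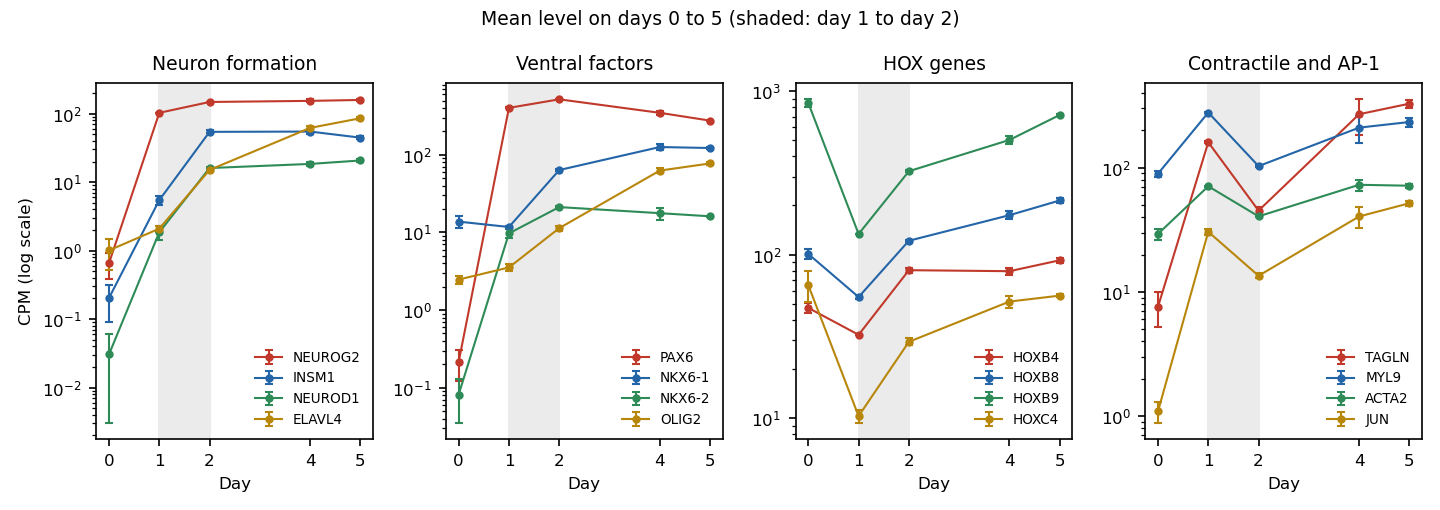
Mean CPM (log axis, bars ± SD, n = 3) on days 0, 1, 2, 4 and 5 for genes of neuron formation, ventral factors, HOX genes and contractile or AP-1 genes, with the interval between day 1 and day 2 shaded. INSM1, NEUROD1 and NKX6-1 climb steeply in the shaded interval while NEUROG2 and PAX6 climb mainly before it; the 4 HOX genes turn upwards from a low on day 1; TAGLN, MYL9, ACTA2 and JUN are lower on day 2 than on day 1 or day 4.

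Genes of the starting tail bud state were mostly lower on day 2. SP5, a direct Wnt target, averaged 0.564 ± 0.15 CPM on day 2, against 4.85 ± 0.23 CPM on day 1 (-3.08 ± 0.21 (SE), adjusted p = 1.1e-13). FGF17, a tail bud FGF ligand, averaged 0.283 ± 0.12 CPM on day 2, against 2.48 ± 0.31 CPM on day 1 (-3.12 ± 0.38), and WNT3A 0.485 ± 0.1 CPM on day 2, against 3.2 ± 0.27 CPM on day 1 (-2.71 ± 0.51). TBXT (Brachyury) averaged 0.166 ± 0.015 CPM on day 2, against 0.964 ± 0.29 CPM on day 1 (-2.52 ± 0.48). WNT8A had 3 counts over the day 2 libraries, giving a ratio of 15.8 for day 1 over day 2 (95% counting interval 5.09 to 79.4). NKX1-2 fell to 7.94 ± 0.58 CPM on day 2, against 25.8 ± 1 CPM on day 1, and CDX2 to 12.5 ± 0.83 CPM on day 2, against 23.7 ± 0.36 CPM on day 1. Of 16 neuromesodermal and tail bud genes tested, 9 fell and 3 rose, with a median of -1.90, and 9 fell in every alternative fit. The rises were of WNT5A (40.1 ± 0.38 CPM on day 2, against 14.4 ± 0.4 CPM on day 1, 1.47 ± 0.08), GREB1 (0.32 ± 0.09) and GDF11 (0.34 ± 0.09).

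Of the pluripotency genes, most that passed the test fell. POU5F1 (OCT4), which overlaps TCF19 and has pseudogenes that can share its reads, had 1.66, 1.59 and 1.63 CPM in the day 2 libraries, against 10.8, 9.43 and 10.3 CPM in the day 1 libraries (-2.64 ± 0.18 (SE), adjusted p = 7.3e-14). LEFTY2, a Nodal inhibitor, averaged 0.274 ± 0.076 CPM on day 2, against 5.96 ± 0.18 CPM on day 1 (-4.43 ± 0.60), and it was not counted on day 0. LIN28A, an RNA-binding protein of early cells, rose instead, with 861, 865 and 851 CPM in the day 2 libraries, against 569.8, 583 and 576 CPM in the day 1 libraries (0.58 ± 0.06 (SE), adjusted p = 3.6e-09). It was at 2964, 576, 859 and 893 CPM on days 0, 1, 2 and 4. Of 13 members tested, 5 fell and LIN28A rose. ZIC2, a factor of the early neural plate, fell to 38.1 ± 1.5 CPM on day 2, against 67.7 ± 0.18 CPM on day 1. Among the 16 neural progenitor factors, 6 rose and 6 fell. SOX3 rose (265 ± 15.7 CPM on day 2, against 183 ± 5.2 CPM on day 1, 0.53 ± 0.14), SOX2 fell (378 ± 4.9 CPM on day 2, against 458 ± 5.9 CPM on day 1, -0.28 ± 0.07) and SOX1 did not pass (124 ± 2.1 CPM on day 2, against 129 ± 3.4 CPM on day 1).

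Signalling readouts of FGF were divided. Among feedback genes and ETS targets, ETV1 (6.63 ± 0.42 CPM on day 2, against 2.31 ± 0.73 CPM on day 1), SPRY2 (8.39 ± 1.1 CPM on day 2, against 4.16 ± 0.34 CPM on day 1) and PHLDA1 (6.8 ± 0.28 CPM on day 2, against 2.32 ± 0.21 CPM on day 1) rose by 1.55 ± 0.17, 1.02 ± 0.10 and 1.54 ± 0.11. DUSP5, a nuclear phosphatase of ERK, had 17.1, 17.2 and 15.4 CPM in the day 2 libraries, against 73.5, 72.3 and 76.4 CPM in the day 1 libraries (-2.16 ± 0.11 (SE), adjusted p = 6.9e-19), and DUSP6 did not pass (115 ± 5.1 CPM on day 2, against 106 ± 1.9 CPM on day 1). Of 17 tested, 8 rose and 4 fell, and 2 to 4 fell when 1 library was left out in turn. CCND1 and FOSL1 were among the falls that were lost, CCND1 in 5 such fits (adjusted p between 0.056 and 0.074) and FOSL1 in 2 (0.072 without day 2 replicate 3 and 0.064 without day 1 replicate 2). Of 14 FGF ligands and receptors tested, 4 rose and 4 fell. FGFR1 fell to 557 ± 5.1 CPM on day 2, against 993 ± 9.3 CPM on day 1, and FGFR2 rose (325 ± 2.4 CPM on day 2, against 243 ± 4.4 CPM on day 1, 0.42 ± 0.14), a call lost in all 6 fits without 1 library (adjusted p between 0.057 and 0.075).

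Wnt and BMP readouts rose in part. AXIN2, the general feedback target of Wnt signalling, averaged 66.9 ± 1.8 CPM on day 2, against 52.7 ± 1.3 CPM on day 1 (0.34 ± 0.10). KREMEN1, a receptor of the Wnt inhibitor DKK1, rose by 0.78 ± 0.12, and LGR5 averaged 1.87 ± 0.077 CPM on day 2, against 0.787 ± 0.067 CPM on day 1. Of 13 Wnt targets tested, 5 rose and SP5 fell. The ID genes, which BMP signalling induces and which block bHLH factors, did not move together. ID1 averaged 11.9 ± 0.74 CPM on day 2, against 5.53 ± 0.14 CPM on day 1 (1.10 ± 0.12) and ID4 57.1 ± 3.4 CPM on day 2, against 27.1 ± 2.2 CPM on day 1 (1.07 ± 0.09), whereas ID3 fell to 68.2 ± 3.5 CPM on day 2, against 109.5 ± 3.4 CPM on day 1. Of 16 BMP readouts and inhibitors, 4 rose and 2 fell.

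Genes of the contractile cytoskeleton fell together. TAGLN (transgelin, which overlaps PCSK7; ENSG00000149591, chromosome 11, 117199321 to 117204782) had 48.7, 42.1 and 44.6 CPM in the day 2 libraries, against 156, 163 and 161 CPM in the day 1 libraries (-1.83 ± 0.39 (SE), adjusted p = 0.00059). MYL9, a myosin light chain, had 105, 101 and 103 CPM in the day 2 libraries, against 278, 276 and 281 CPM in the day 1 libraries (-1.43 ± 0.27 (SE), adjusted p = 0.00017). The smooth muscle actin gene ACTG2 averaged 2.32 ± 0.68 CPM on day 2, against 10.2 ± 0.63 CPM on day 1 (-2.15 ± 0.53), calponin CNN1 4.71 ± 0.15 CPM on day 2, against 17.5 ± 1.8 CPM on day 1 (-1.89 ± 0.40), and ACTA2 40.6 ± 0.63 CPM on day 2, against 70.9 ± 0.65 CPM on day 1 (-0.81 ± 0.22). CCN2, a secreted protein induced by YAP (listed as CTGF), averaged 143 ± 0.4 CPM on day 2, against 257 ± 10.3 CPM on day 1 (-0.85 ± 0.21), and SRF, the serum response factor itself, 119 ± 5.9 CPM on day 2, against 149 ± 5 CPM on day 1 (-0.33 ± 0.07). Of 19 genes regulated by SRF or YAP, 13 fell and none rose, with a median of -0.70. The number that fell was between 8 and 18 over the alternative fits, and none rose in any fit or at an unadjusted p under 0.05. Leaving out 1 library gave 10 falls each time, and the call of FHL2 (adjusted p between 0.051 and 0.093) was among those lost. ANKRD1, CCN1, VCL, FLNA, CNN2 and LATS2 did not pass, with changes between -1.06 and -0.04 on the log2 scale. On the surrounding days TAGLN was at 7.58, 160.3, 45.1 and 269.7 CPM on days 0, 1, 2 and 4, and MYL9 at 89.5, 278, 103 and 210.3 CPM on days 0, 1, 2 and 4.

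The promoters of ACTG2 and SRF are shown because both genes fell and each holds the CArG box, the letters that SRF recognises, more than once. They are given as above, from RefSeq (GRCh38.p14), with each CArG box in capitals. That of ACTG2 is chr2:73892758-73893007, plus strand, and that of SRF chr6:43171019-43171268, plus strand.
ACTG2: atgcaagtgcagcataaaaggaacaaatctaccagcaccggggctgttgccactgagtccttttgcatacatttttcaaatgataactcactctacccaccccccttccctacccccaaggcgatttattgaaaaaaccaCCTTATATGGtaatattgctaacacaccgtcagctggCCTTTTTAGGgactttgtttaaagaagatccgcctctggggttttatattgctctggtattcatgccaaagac
SRF: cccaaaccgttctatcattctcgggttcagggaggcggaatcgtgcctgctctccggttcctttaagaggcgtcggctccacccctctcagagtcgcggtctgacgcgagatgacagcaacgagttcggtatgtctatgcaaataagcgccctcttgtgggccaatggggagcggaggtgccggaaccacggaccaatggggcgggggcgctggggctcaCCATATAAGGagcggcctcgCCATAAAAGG
A CArG box is in 1.16% of the 35116 promoters (407 of them). It is its own complement in form, so 1 search covers both strands. Of 16 contractile list genes with a promoter entry, 5 hold it: 3 of the 11 that fell (ACTG2, FHL2 and SRF) and 2 of the 5 not called (CNN2 and FLNA). Among 128 tested protein-coding genes with the box, 25 (19.5%) rose and 27 (21.1%) fell, against 13.1% and 14.3% of the 11782 with any promoter entry. Across all genes the box was thus found beside rises as well as falls.

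Several genes of striated muscle were among the largest falls of the whole comparison. TNNC1, a troponin, had 1.62, 1.81 and 1.71 CPM in the day 2 libraries, against 21.2, 22.7 and 23.7 CPM in the day 1 libraries (-3.71 ± 0.21 (SE), adjusted p = 7.9e-17). TNNT1 averaged 2.25 ± 0.44 CPM on day 2, against 19.2 ± 0.47 CPM on day 1 (-3.08 ± 0.16), the skeletal actin gene ACTA1 4.42 ± 0.5 CPM on day 2, against 32.1 ± 1.3 CPM on day 1 (-2.86 ± 0.31) and the giant muscle protein gene TTN, which overlaps CCDC141, 1.67 ± 0.19 CPM on day 2, against 14.6 ± 1.7 CPM on day 1 (-3.12 ± 0.26). Markers of mesoderm stood apart from these. Of 8 mesoderm genes tested, PDGFRA alone was called, at 2.41 CPM on day 2, against 3.69 CPM on day 1, and its call was lost without day 2 replicate 2 (adjusted p = 0.18). TBX6 averaged 0.33 ± 0.13 CPM on day 2, against 0.172 ± 0.042 CPM on day 1, TCF15 1.13 ± 0.18 CPM on day 2, against 1.17 ± 0.25 CPM on day 1 and MEOX1 1.71 ± 0.24 CPM on day 2, against 1.65 ± 0.28 CPM on day 1, and none of these passed.

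Some AP-1 factors, which respond within minutes to stress and growth factors, were lower. JUN averaged 13.5 ± 0.59 CPM on day 2, against 30.5 ± 1.6 CPM on day 1 (-1.18 ± 0.10 (SE), adjusted p = 1.8e-11), FOSL2 13.2 ± 0.84 CPM on day 2, against 35.6 ± 0.86 CPM on day 1 (-1.44 ± 0.26), and ATF3, a stress-induced factor, 10.4 ± 0.49 CPM on day 2, against 25.8 ± 0.19 CPM on day 1 (-1.31 ± 0.20). FOS averaged 0.54 ± 0.17 CPM on day 2, against 0.616 ± 0.29 CPM on day 1 and did not pass, nor did FOSB and JUNB. MYC rose (39.3 ± 0.34 CPM on day 2, against 26.1 ± 1.2 CPM on day 1, 0.59 ± 0.17). Of 17 immediate early genes tested, 5 fell and 2 rose. The falls of FOSL1 (adjusted p = 0.072 without day 2 replicate 3 and 0.064 without day 1 replicate 2) and JUND (0.086 without day 2 replicate 2 and 0.054 without day 1 replicate 1) were each lost in 2 fits without 1 library.

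Targets of p53, the DNA damage and stress response factor, were slightly but widely lower. Of 20 tested, 13 fell and none rose, with a median of -0.31. The number that fell lay between 9 and 16 over the alternative fits, and none rose in any fit or at an unadjusted p under 0.05. TP53I3, a redox enzyme gene, had 38.7, 39.6 and 39.5 CPM in the day 2 libraries, against 59.2, 57.3 and 58.8 CPM in the day 1 libraries (-0.57 ± 0.09 (SE), adjusted p = 5.2e-06). RRM2B, a ribonucleotide reductase subunit gene, averaged 37.8 ± 1.4 CPM on day 2, against 50.5 ± 1.5 CPM on day 1 (-0.42 ± 0.10), with its call lost with limma on TPM (adjusted p = 0.15). BAX, a gene of apoptosis, averaged 83.5 ± 2 CPM on day 2, against 104 ± 5.5 CPM on day 1 (-0.31 ± 0.07). The most used readouts, CDKN1A (38.6 ± 2.4 CPM on day 2, against 49.6 ± 0.87 CPM on day 1) and MDM2 (94.0 ± 2.5 CPM on day 2, against 107 ± 4 CPM on day 1), did not pass. GDF15 had the lowest change of the list (-0.66 ± 0.23), and its call was lost in 5 of the 6 fits without 1 library, at adjusted p between 0.054 and 0.13.

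**Figure D5:**
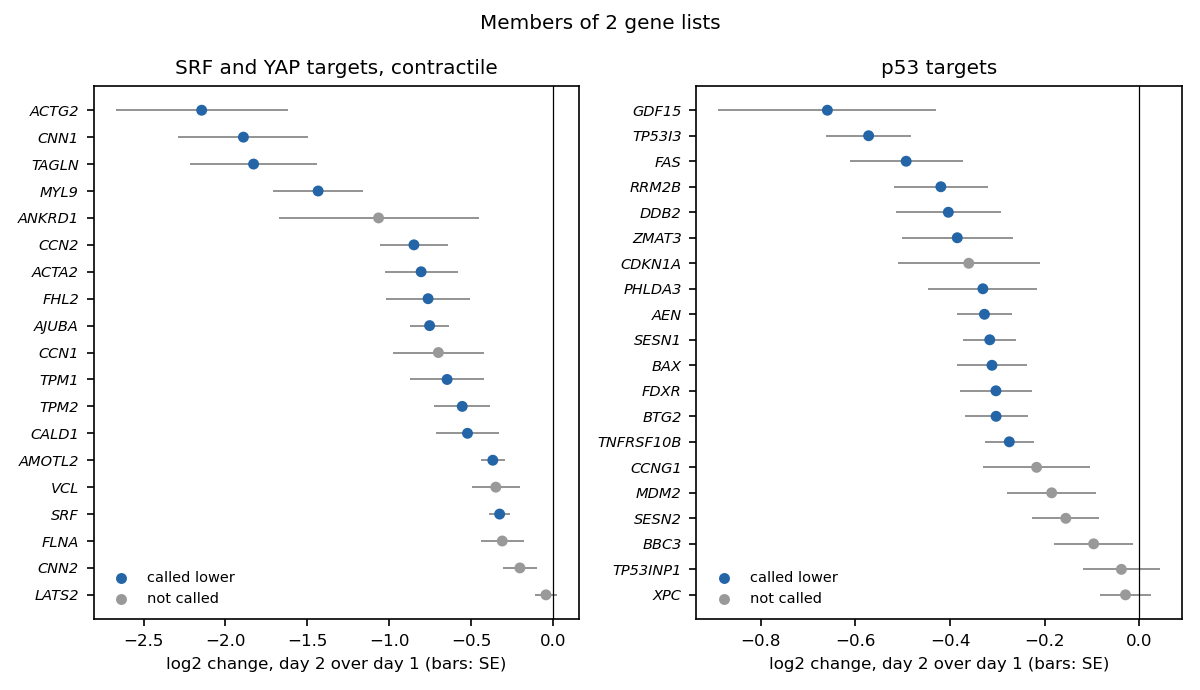
Log2 change of day 2 over day 1 (points) with SE (bars) for the 19 contractile, SRF and YAP target genes (left) and the 20 p53 target genes (right), blue where called lower and grey where not called. All 39 points lie below 0, and the contractile genes spread down to -2.15 while the p53 targets lie between -0.66 and -0.03.

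Extracellular matrix genes were the other large group to fall. TNC (tenascin C, which overlaps DEC1; ENSG00000041982, chromosome 9, 115019578 to 115118257) had 87.0, 87.7 and 75.5 CPM in the day 2 libraries, against 458, 474 and 469.9 CPM in the day 1 libraries (-2.48 ± 0.32 (SE), adjusted p = 3.9e-07). COL1A1 averaged 7.55 ± 0.5 CPM on day 2, against 31.9 ± 0.71 CPM on day 1 (-2.07 ± 0.47) and COL1A2 5.45 ± 0.33 CPM on day 2, against 17.1 ± 1.3 CPM on day 1 (-1.65 ± 0.22), and the basement membrane gene LAMB1 fell to 123 ± 5.7 CPM on day 2, against 252 ± 1.1 CPM on day 1. Of 28 tested, 14 fell and 3 rose, and the rises were of COL5A2 (39.1 ± 0.57 CPM on day 2, against 15.4 ± 1 CPM on day 1), NID1 (175 ± 4.5 CPM on day 2, against 97.3 ± 2.6 CPM on day 1) and COL6A1 (68.8 ± 1.6 CPM on day 2, against 58.0 ± 2.1 CPM on day 1). Fibronectin, FN1, on which the cells were also plated as protein, averaged 258 ± 11.0 CPM on day 2, against 246 ± 6.5 CPM on day 1 and did not pass. Among cadherins and polarity genes 7 of 17 rose and 2 fell. CDH20 had 35.8, 36.9 and 38.4 CPM in the day 2 libraries, against 4.74, 4.81 and 5.54 CPM in the day 1 libraries (2.89 ± 0.10 (SE), adjusted p = 1.3e-23). CDH2 (N-cadherin), the main cadherin of the neural tube, averaged 823 ± 7.2 CPM on day 2, against 606 ± 20.8 CPM on day 1 (0.44 ± 0.05) and CDH4 99.5 ± 2.3 CPM on day 2, against 55.1 ± 1.5 CPM on day 1 (0.85 ± 0.06), while CDH10 fell (-0.91 ± 0.10).

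Axon guidance genes went both ways, with 8 of 28 higher and 9 lower. When 1 library was left out, 6 to 8 were higher and 6 to 8 lower. DCC, a netrin receptor gene, averaged 4.4 ± 0.28 CPM on day 2, against 0.975 ± 0.21 CPM on day 1 (2.14 ± 0.26) and ROBO3 5.44 ± 1 CPM on day 2, against 2.6 ± 0.25 CPM on day 1 (1.07 ± 0.17). PLXNA2, a semaphorin co-receptor, averaged 574 ± 11.8 CPM on day 2, against 296 ± 4.7 CPM on day 1 (0.96 ± 0.08). The neuropilin gene NRP2 fell to 307 ± 5.6 CPM on day 2, against 578 ± 5.4 CPM on day 1, and SLIT2 to 58.0 ± 3.1 CPM on day 2, against 105 ± 2.2 CPM on day 1.

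S phase and G2/M genes changed by small amounts. MKI67 averaged 1199 ± 13.8 CPM on day 2, against 1236 ± 32.1 CPM on day 1 and TOP2A 1108 ± 8.5 CPM on day 2, against 1065 ± 63.1 CPM on day 1, and neither passed. Of 24 S phase genes, 6 fell and 1 rose, and 13 were lower and 2 higher in the fit of days 1 and 2 only. RRM2, the regulated ribonucleotide reductase subunit, averaged 323 ± 0.48 CPM on day 2, against 423 ± 9.3 CPM on day 1 (-0.39 ± 0.06) and TYMS 365 ± 1.2 CPM on day 2, against 443 ± 12.6 CPM on day 1 (-0.28 ± 0.06), and the rise, of E2F1 (0.19 ± 0.07), was lost in each fit that left out 1 library. Of 24 G2/M genes, 4 fell and none rose (none also with DESeq2 or at an unadjusted p under 0.05), with changes between -0.29 and -0.16, and 1 to 3 fell when 1 library was left out. In the fit of days 1 and 2 only, 7 G2/M genes were lower and 4 higher. With limma on log2(TPM + 1), 1 G2/M gene was higher and none lower. CDKN2C, an inhibitor of CDK4 and CDK6, averaged 4.38 ± 0.42 CPM on day 2, against 1.39 ± 0.11 CPM on day 1 (1.66 ± 0.18 (SE), adjusted p = 1.2e-09). Of 13 CDK inhibitors and D cyclins, 3 rose and 1 (CCND1) fell. CDKN2A was at 0.176 CPM on day 2, against 0.0221 CPM on day 1, and lost its call in 4 of the 6 fits without 1 library, at adjusted p between 0.091 and 0.15.

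Metabolic lists moved little at the median, with -0.10 for hypoxia and glycolysis and 0.10 for sterol synthesis on the log2 scale. Single genes of these lists fell by more, to -1.05 and -0.61. Of 26 hypoxia and glycolysis genes, 10 fell and 3 rose, and 1 or 2 rose when 1 library was left out. NDRG1 (8.86 ± 0.64 CPM on day 2, against 18.3 ± 0.66 CPM on day 1), PFKP (8.04 ± 0.32 CPM on day 2, against 15.9 ± 1.1 CPM on day 1) and LDHA (100.2 ± 0.55 CPM on day 2, against 125 ± 8 CPM on day 1) fell, with log2 changes of -1.05 ± 0.10, -0.99 ± 0.24 and -0.32 ± 0.06, whereas the glucose transporter SLC2A1 rose (1075 ± 28.7 CPM on day 2, against 852 ± 10.4 CPM on day 1, 0.34 ± 0.08). Of 24 sterol synthesis genes, 6 rose and SC5D, a desaturase, fell (39.3 ± 1.5 CPM on day 2, against 59.9 ± 4.4 CPM on day 1). Of the same genes 12 rose with limma on log2(TPM + 1). For integrated and ER stress genes, 4 of 21 rose and 1 fell, and 10 rose on the TPM scale. The chaperone HSP90B1 averaged 1027 ± 6.2 CPM on day 2, against 840.4 ± 48.1 CPM on day 1 (0.29 ± 0.06) and HSPA5 628 ± 7.5 CPM on day 2, against 530.4 ± 4.7 CPM on day 1 (0.24 ± 0.06). Of 11 heat shock genes, HSPA1A alone rose (0.27 ± 0.09), and its call was lost in 4 fits without 1 library (adjusted p between 0.06001 and 0.2091). It shares reads with the near-identical HSPA1B, which did not pass. Of 13 mitochondrially encoded genes 3 fell (MT-ND1, MT-ND2 and MT-ND3), with 0 to 4 called when 1 library was left out, and none with limma on log2(TPM + 1). Their levels follow the mitochondrial share given above. Of 15 chromatin and DNA methylation genes, TET2 rose (24.4 ± 0.34 CPM on day 2, against 18.4 ± 1.3 CPM on day 1), and TET3 and CBX7 fell, the TET3 call being lost without day 1 replicate 3 (adjusted p = 0.058) and that of CBX7 in 5 fits without 1 library (0.055 to 0.15).

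Markers of other cell types and glia were called too. Of 9 non-neural ectoderm genes tested, KRT8, KRT19, EPCAM and GRHL3 fell and none rose, also with DESeq2 or at an unadjusted p under 0.05, with KRT8 at 55.1 ± 1.5 CPM on day 2, against 93.9 ± 1.2 CPM on day 1. Endoderm and endothelium genes numbered 9, with 2 higher and 3 lower, and TEK, the angiopoietin receptor gene, was among the falls (28.5 ± 0.94 CPM on day 2, against 61.3 ± 0.62 CPM on day 1, -1.11 ± 0.14). Among 16 gliogenic genes, 5 rose and 5 fell. The glial switch factors NFIA and NFIX averaged 0.328 CPM on day 2, against 1.05 CPM on day 1, and 0.168 CPM on day 2, against 0.78 CPM on day 1, and the call of NFIA was lost without day 2 replicate 3 (adjusted p = 0.054). SOX9, which prepares progenitors for glia formation, averaged 28.8 ± 0.37 CPM on day 2, against 27.1 ± 0.62 CPM on day 1 and did not pass. FABP7 (32.4 ± 1.4 CPM on day 2, against 20.5 ± 0.22 CPM on day 1) and SOX8 (12.3 ± 0.78 CPM on day 2, against 8.38 ± 0.17 CPM on day 1) rose.

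The remaining genes with the largest changes were a mixed group. PRDM8, a zinc finger factor of neural cells, averaged 88.6 ± 1.4 CPM on day 2, against 11.3 ± 0.94 CPM on day 1 (2.96 ± 0.16). VXN, a neurogenesis gene known from Xenopus that overlaps a gene known by the identifier AC009879.3, averaged 32.2 ± 1.8 CPM on day 2, against 3.08 ± 0.26 CPM on day 1 (3.39 ± 0.17), and CPLX2, a complexin of synaptic release, 16.6 ± 0.88 CPM on day 2, against 1.98 ± 0.34 CPM on day 1 (3.08 ± 0.20). NAV3 (neuron navigator) averaged 20.8 ± 0.93 CPM on day 2, against 2.82 ± 0.14 CPM on day 1, and FAT4, a giant cadherin of planar polarity, 89.8 ± 1.3 CPM on day 2, against 12.3 ± 0.75 CPM on day 1. MTTP, a lipid transfer protein gene that overlaps TRMT10A, rose by 3.19 ± 0.18, and the metallothionein gene MT1X, whose reads may be shared with near-identical copies, by 2.82 ± 0.18. Among the falls, APOE, an apolipoprotein, had 6.99, 7.39 and 6.71 CPM in the day 2 libraries, against 78.6, 78.5 and 82.6 CPM in the day 1 libraries (-3.50 ± 0.20 (SE), adjusted p = 1.4e-15). TMPRSS2, a membrane serine protease, averaged 1.79 ± 0.22 CPM on day 2, against 21.3 ± 1.5 CPM on day 1 (-3.57 ± 0.26). CLDN6, a tight junction gene of early embryonic epithelia that overlaps TNFRSF12A, averaged 3.69 ± 0.16 CPM on day 2, against 21.9 ± 0.57 CPM on day 1 (-2.57 ± 0.33). ASS1, of arginine synthesis, averaged 10.4 ± 0.23 CPM on day 2, against 53.9 ± 1.5 CPM on day 1 and the matrix gene FBLN2 5.06 ± 0.11 CPM on day 2, against 26.7 ± 0.45 CPM on day 1. CAMK2A, which overlaps SLC6A7, averaged 2.46 ± 0.39 CPM on day 2, against 14.2 ± 1.7 CPM on day 1, and KLHDC7A 4.23 ± 0.35 CPM on day 2, against 21.6 ± 0.98 CPM on day 1.

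By type of transcript, 27% of 15271 protein-coding genes tested were called, against 12.6% of 1033 lincRNA genes. Among lincRNA genes 86 rose and 44 fell, and among antisense genes 77 of 1143 rose and 33 fell. Whether counting used the strand could not be learned from the sources used here, so an antisense gene cannot be told apart from the gene it overlaps.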

How the data were processed

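RNA-seq of 45 human libraries, 3 on each of 15 days, was used. Per the submitters' processing notes, reads were handled with bcl2fastq 2.20.0 and RSEM on GRCh38, while the aligner, annotation release and use of strand are not given there or in the labels. The authors deposited RSEM expected counts per gene, of which 92.5% were whole numbers (within 1e-09), and TPM values, which summed to 999999 to 1000001 in each library. Gene names, types and positions came from GENCODE release 29, which holds 57895 of the 58233 gene IDs, and the other 338 held 0.0276% of the counts.

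Expected counts were rounded to whole numbers. edgeR 4.0.16 (R 4.3.3) kept the 19436 genes that passed filterByExpr by day, scaled libraries by TMM (factors 0.9247 to 1.061) and fitted day over all 45 libraries (30 residual degrees of freedom) with a robust quasi-likelihood model. Genes were called at a Benjamini-Hochberg adjusted p under 0.05 over all genes tested. CPM and its SD came from the same scaling and have no prior count. Counting intervals are exact at 95% and cover counting error only. The fit was tested on simulated data. Alternatives were DESeq2 1.42.0, its size factors, no filter, days 1 and 2 only, a replicate block, libraries left out, limma 3.58.1 on log2(TPM + 1) or log2(TPM + 0.1) for genes with at least 1 TPM in 3 libraries, and a 2-fold limit. Promoters are from RefSeq (GRCh38.p14).

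The comparison, the gene lists and the rules were chosen with earlier results of these data known. Genes were named by rule: the top 15 rises and top 15 falls by log2 change among called protein-coding genes whose mean reached 10 CPM on either day and whose days did not overlap, up to 4 called members of each list with the largest change, every member of lists of 6 or fewer, and a panel of known markers. Other list members and the striated muscle group were named after their values were seen. Same-numbered libraries of the 2 days did not deviate together (correlations of deviations 0.00113, 0.0135 and -0.0251 for numbers 1, 2 and 3), so the numbers were not taken as pairs. A few named genes are not reported here.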

Additional observations from a re-analysis of the deposited data

How the results depend on the processing

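With DESeq2, 4541 genes were called (2104 higher and 2437 lower), of which 4299 were also called by edgeR, all in the same direction. DESeq2's size factors gave 4546 calls and no filter 3615. A replicate block gave 4558 (2232 higher and 2326 lower), and in a fit of days 1 and 2 only 5846 calls, against 6353 without the block. The numbers do not pair the libraries, so the block says nothing of the size of an effect. Calls numbered 2963 to 3753 (1460 to 1805 higher, 1503 to 1968 lower) over the fits without 1 library or without 1 replicate number, the lowest being those with fewest libraries. A 2-fold limit left 1089 calls, 422 higher and 667 lower. With limma, 1267 genes were lower on log2(TPM + 1) and 1298 on log2(TPM + 0.1), and 67.2% and 68.4% of calls were higher, against 48.9% with edgeR. The cause was not tested. Day 2 lay at 14.3% of the first component with 500 genes and 11.2% with 5000, against 13.6% with 1000. In TPM, the mitochondrial share differed by -1.70 percentage points. Among 646 listed or named genes, DESeq2 ended 7 calls and added 28, limma on log2(TPM + 1) ended 50 and added 25 of 618, fits without 1 library ended 35 to 43, and fits without 1 replicate number 71 to 74. The fit of days 1 and 2 only ended 2 and added 104 of 583, or 96 with the replicate block. In that fit without the block, counts of list members rose for many lists, given here with those of all days in brackets. Sterol synthesis had 13 higher (6), and integrated and ER stress 11 higher and 5 lower (4 and 1). Extracellular matrix had 5 higher and 20 lower (3 and 14). The neural crest and roof plate, BMP (2 each) and CDK inhibitor lists (1) had 5 lower. HOX cofactors and RA receptors had 3 lower (1 each), and heat shock genes 2 lower (0). Pan-neuronal genes had 14 higher (11), axon guidance 11 (8) and Notch ligands and modifiers 6 (4). Floor plate and chromatin genes had 3 higher (1 each). Only SLIT3 was called in the opposite direction to its edgeR change, at -0.48 on log2(TPM + 0.1). Calls kept in each fit without 1 library but lost without at least 1 replicate number or with limma were those of KRT8, KRT19, EPCAM, HES7, LGR5, MYC, SOX3, AXIN2, GDF11, GREB1, COL6A1, NES, DPYSL3 and ACTA2. For genes under about 1 CPM the number of counts limits what these libraries can show.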
